A study of Mus musculus with 9 samples.

Results

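Heparan sulfate is a sulfated sugar chain carried by cell surface and matrix proteins, and 10 genes that build its sulfation pattern, edit it or carry it were measured here in mouse neural stem cells depleted of the cohesin subunit Rad21. They are the extracellular sulfatases Sulf1 and Sulf2, the sulfotransferases Hs2st1, Hs6st1 and Hs6st2, and the glypicans Gpc1, Gpc2, Gpc3, Gpc4 and Gpc6, chosen by name out of the 24503 genes of the count table. All 10 passed the filter on low counts, which left 13560 genes to be tested. The choice was made with the values of all 3 groups known, so the differences of these 10 genes are given as descriptions, without p-values.

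The series held 9 RNA-seq libraries of primary neural stem cells, isolated from the cortex of E13.5 embryos, enriched as neurospheres and expanded on laminin (5 µg/mL) with fibroblast growth factor (FGF, 10 ng/mL) and epidermal growth factor (EGF, 20 ng/mL). The groups were shRad21_2 and shRad21_1, transduced with virus carrying either of 2 different short hairpin RNAs against Rad21, and shNT, transduced with a non-targeting hairpin, with 3 libraries each. Every group carried the Phf2flox/flox genotype, which the labels call wild type. The age of the culture and the time after transduction were not given, and nothing in the labels says that replicates came from separate cultures or animals, so p-values measure only the spread between these libraries, which may be technical.

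Heparan sulfate chains bind growth factors such as FGFs and Wnts and present them to their receptors, and the binding depends on where the sugars carry sulfate. Sulfotransferases add sulfate inside the Golgi apparatus: Hs2st1 at the 2-O position of the uronic acid, Hs6st1 and Hs6st2 at the 6-O position of glucosamine. Sulf1 and Sulf2 remove 6-O-sulfates again outside the cell, which is known to lower FGF signalling and to release Wnt ligands. Glypicans are core proteins tied to the membrane by a lipid anchor and carry the chains on the surface of neural progenitors and other cells.

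Gpc2, Hs6st2, Gpc4 and Gpc3 are shown with their promoter sequence because of where they sit. Gpc2 starts 235 bases from Stag3, a meiotic subunit of the cohesin complex to which Rad21 belongs, with both genes read outward from the shared stretch. Hs6st2, Gpc4 and Gpc3 follow each other on the X chromosome, with 483.4 kb between the starts of Hs6st2 and Gpc4 and 448.7 kb between those of Gpc4 and Gpc3, and no other tested gene starts between them. Each sequence is the RefSeq window (GRCm38.p6, the mm10 build) from 250 bases before to 50 bases after the transcript start, written 5′ to 3′ on the minus strand, on which all 4 genes lie, with GC boxes (GGGCGG or its reverse complement) in capitals. The windows are chr5:138279888-138280187 for Gpc2, chrX:51681553-51681852 for the first of 2 listed starts of Hs6st2, chrX:52164874-52165173 for Gpc4 and chrX:52613925-52614224 for Gpc3.
Gpc2: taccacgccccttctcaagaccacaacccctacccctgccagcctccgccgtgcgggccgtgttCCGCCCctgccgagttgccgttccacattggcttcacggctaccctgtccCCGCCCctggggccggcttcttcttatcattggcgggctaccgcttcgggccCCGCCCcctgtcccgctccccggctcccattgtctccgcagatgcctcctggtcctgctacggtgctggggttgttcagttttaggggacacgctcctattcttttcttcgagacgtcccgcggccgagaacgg
Hs6st2: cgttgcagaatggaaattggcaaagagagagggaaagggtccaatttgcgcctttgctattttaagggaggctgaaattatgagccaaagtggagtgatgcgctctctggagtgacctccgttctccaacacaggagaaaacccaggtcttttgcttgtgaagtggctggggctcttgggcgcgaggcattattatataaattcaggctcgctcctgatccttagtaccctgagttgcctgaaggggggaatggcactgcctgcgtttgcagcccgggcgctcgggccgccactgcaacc
Gpc4: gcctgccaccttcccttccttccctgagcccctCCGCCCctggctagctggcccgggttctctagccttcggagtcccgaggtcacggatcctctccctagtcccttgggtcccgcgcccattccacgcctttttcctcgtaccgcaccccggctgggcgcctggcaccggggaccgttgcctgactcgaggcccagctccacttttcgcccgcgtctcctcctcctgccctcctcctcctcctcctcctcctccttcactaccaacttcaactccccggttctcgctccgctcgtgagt
Gpc3: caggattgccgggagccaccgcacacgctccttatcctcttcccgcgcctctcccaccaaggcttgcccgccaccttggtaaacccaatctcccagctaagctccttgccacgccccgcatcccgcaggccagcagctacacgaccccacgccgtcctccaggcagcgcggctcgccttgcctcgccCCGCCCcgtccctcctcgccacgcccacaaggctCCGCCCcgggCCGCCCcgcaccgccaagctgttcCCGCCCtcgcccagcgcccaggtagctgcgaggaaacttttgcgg
GC boxes numbered 3 in the Gpc2 window, 1 in that of Gpc4 and 4 in that of Gpc3, and the Hs6st2 window held none. Of 32851 promoter windows of the same length, 35.7% held a GC box on either strand. The letters TATAAA, searched on both strands, occurred once in the Hs6st2 window and not in the other 3, and in 13.6% of all windows. The Gpc2, Gpc4 and Gpc3 windows had 65.7%, 66.7% and 70.7% G and C, above the Hs6st2 window with 53.7% and the median of all windows with 52.7%. The window of the second listed Hs6st2 start (chrX:51680428-51680727), not printed here, differed from the first. It held 1 GC box and no TATAAA and had 71.7% G and C, so the contrast with the glypican windows holds for the first start only.

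Rad21, the targeted gene, was low in the libraries of both hairpins. Its level was 82.0, 91.2 and 82.5 CPM (counts scaled to library size, here with TMM normalization) in the shRad21_2 libraries, 187.3, 173.7 and 178.2 CPM in the shRad21_1 libraries and 530.7, 449.8 and 456.3 CPM in the shNT libraries. The log2 fold change was -2.49 (SE 0.09, edgeR quasi-likelihood test, adjusted p = 2.83e-07) for shRad21_2 and -1.41 (SE 0.09, adjusted p = 1.66e-04) for shRad21_1, each against the same 3 shNT libraries. Total counts per library ranged between 34780003 and 46644607, and 3 counts, taken as the floor, equalled 0.0664 to 0.088 CPM. Replicate 1 of shRad21_1 stood apart from its group: along principal component 1 (60.2% of the variance) it was at 12.6, between the shRad21_2 libraries (50.8 to 58.3) and shRad21_1 replicates 2 and 3 (-20.3 and -21.2), with the shNT libraries at -48.3 to -39.8. Differences of the 10 genes that moved by more than 1 SE without it are given both ways. Replicates 2 and 3 were much closer to each other than to replicate 1 in shRad21_1 (chi-square per gene of 2.07, against 57.5 and 57.8) and in shNT (2.92, against 19.2 and 20.3), though they still differed by more than sampling noise. The 10 listed neural stem cell markers, such as Nes and Sox2, were all tested and summed to 6776.4 to 7815.8 CPM in shRad21_2, 6117.4 to 7024.5 CPM in shRad21_1 and 7220.8 to 7604.0 CPM in shNT. Single markers differed between groups within that sum: Nes averaged 2490.1 ± 188.3 CPM in shRad21_2, 1460.4 ± 434.6 CPM in shRad21_1 and 1217.6 ± 93.8 CPM in shNT (SD, n = 3), and Hes5 10.3 ± 5.76 CPM in shRad21_2, 29.1 ± 23.1 CPM in shRad21_1 and 43.5 ± 6.94 CPM in shNT.

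Sulf1, on chromosome 1 (chr1:12692277-12861192, mm10), was nearly lost with both hairpins. It had 11, 2 and 3 counts in the shRad21_2 libraries (0.244, 0.0587 and 0.0856 CPM), 25, 34 and 15 counts in the shRad21_1 libraries (0.68, 0.907 and 0.399 CPM) and 321, 364 and 372 counts in the shNT libraries (8.83, 8.59 and 8.25 CPM). The 3 groups did not overlap, and shRad21_2 replicates 2 and 3 were at or below the floor. Summed over libraries and scaled by depth, the level was 61.0-fold lower in shRad21_2 than in shNT (exact 95% interval 37.4 to 107.1, from 16 and 1057 counts). In shRad21_1 it was 12.9-fold lower than in shNT (10.2 to 16.6, from 74 and 1057 counts). Between the hairpins, the level in shRad21_2 was 4.73-fold lower than in shRad21_1 (2.73 to 8.69). These intervals cover counting error only. The fitted log2 differences were -5.93 (SE 0.41) for shRad21_2 and -3.69 (SE 0.34) for shRad21_1 against the shared shNT libraries, and -2.24 (SE 0.45) for shRad21_2 against shRad21_1. Replicate 1 of shRad21_2 held 11 of the 16 counts of that group. Without it the log2 differences were -6.82 against shNT and -3.14 against shRad21_1, and by count shRad21_2 was 118.0-fold lower than shNT (50.4 to 364.2) and 9.15-fold lower than shRad21_1 (3.75 to 29.0), from 5 counts. Without shRad21_1 replicate 1, the difference was -3.70 for shRad21_1 against shNT and -2.21 between the hairpins. RNA of whole cultures was measured, so fewer cells with the transcript and less transcript per cell cannot be told apart.

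Sulf2, the second sulfatase, was the most abundant of the 10 genes per kb of exon and showed no comparable drop. Its level was 619.4, 483.6 and 485.4 CPM in shRad21_2, 720.0, 511.9 and 505.0 CPM in shRad21_1 and 501.9, 482.6 and 487.1 CPM in shNT. Replicate 1 was the highest library in each group, and shRad21_2 overlapped both other groups, while the lowest shRad21_1 library lay just above the highest shNT library. The mean was 529.5 ± 77.9 CPM in shRad21_2, 579.0 ± 122.2 CPM in shRad21_1 and 490.5 ± 10.1 CPM in shNT (SD, n = 3 each), with log2 differences of 0.11 for shRad21_2 and 0.24 for shRad21_1 against shNT (SE 0.14 each). Between the hairpins it was -0.13. Without shRad21_1 replicate 1 the shRad21_1 value against shNT was 0.05 and that between the hairpins 0.06. Sulf2 overlaps Ncoa3 on the opposite strand, and the sources used here do not say whether counting used strand. Ncoa3 averaged 1746.3 counts per library and its fitted log2 differences from shNT were 0.07 in shRad21_2 and -0.11 in shRad21_1, neither past the threshold.

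The make-up of the sulfatase transcripts moved with Sulf1, which was a small part of them in every library. Per kb of exon, Sulf1 made up 0.0204%, 0.0063% and 0.00917% of Sulf1 and Sulf2 together in the shRad21_2 libraries. The share was 0.049%, 0.092% and 0.041% in the shRad21_1 libraries and 0.906%, 0.917% and 0.873% in the shNT libraries. Sulf2 made up the rest, so the loss of Sulf1 changed the sum of both little.

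**Figure D1:**
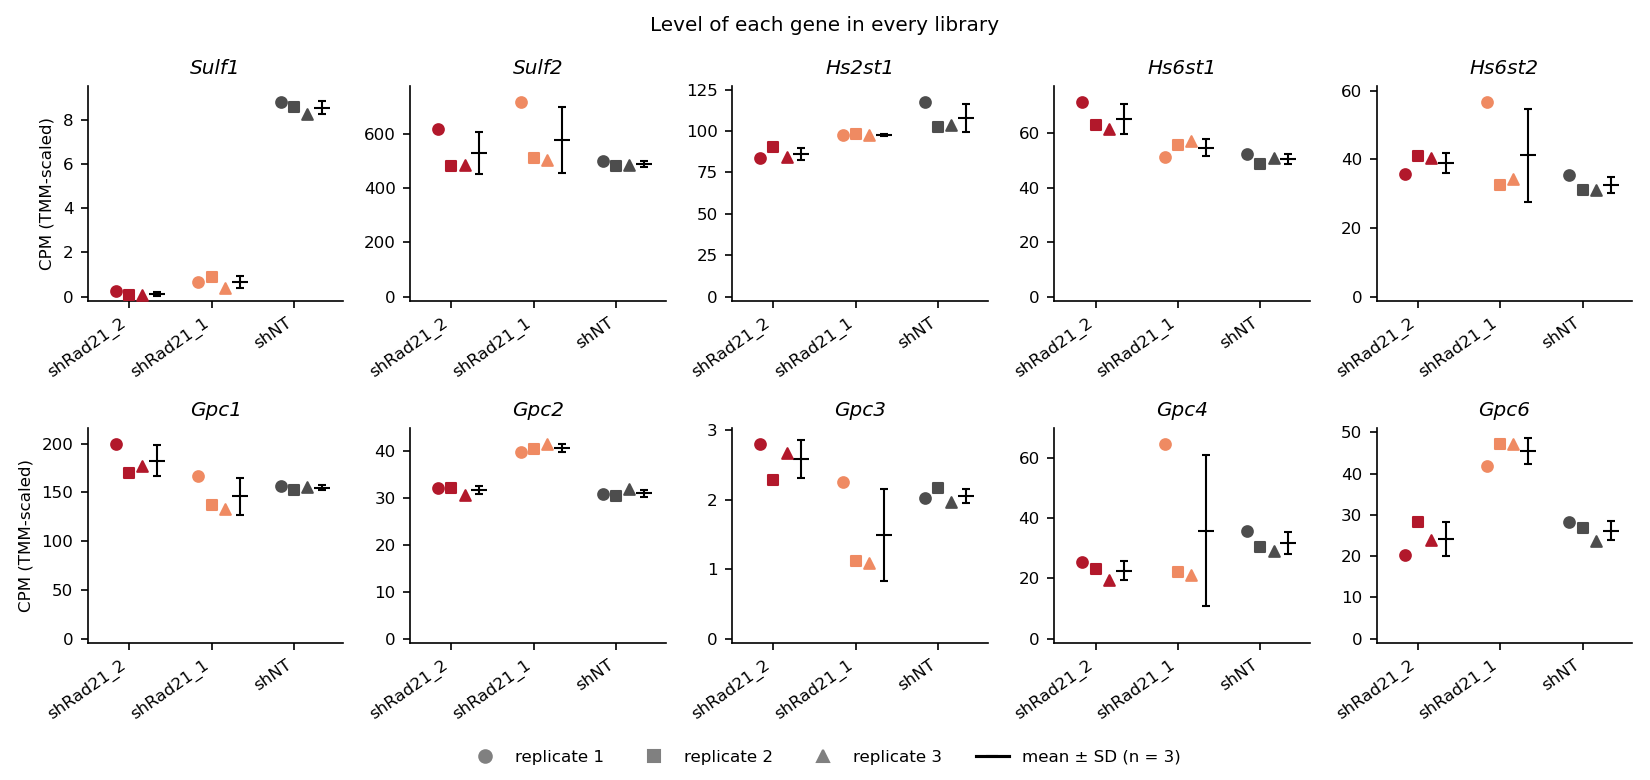
Level of each of the 10 genes in CPM (TMM-scaled, linear axis), by group, with each library as a point (circle, square and triangle for replicates 1, 2 and 3) and the mean ± SD (n = 3) beside it. Sulf1 is between 0.0587 and 0.907 CPM in all 6 hairpin libraries and above 8 CPM in shNT, while Gpc4 shows replicate 1 of shRad21_1 at 64.8 CPM far above every other library.

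Hs2st1, the only 2-O-sulfotransferase of the pathway, on chromosome 3 (chr3:144429706-144570181), followed the order of the groups in Rad21 level. It measured 83.6, 90.5 and 84.1 CPM in shRad21_2, 97.5, 98.4 and 97.5 CPM in shRad21_1 and 117.8, 102.5 and 103.4 CPM in shNT. No library of one group fell within the range of another, although the step was small. The log2 difference was -0.33 in shRad21_2 and -0.14 in shRad21_1 against shNT, and -0.18 in shRad21_2 against shRad21_1 (SE 0.07 each). Only the difference of shRad21_2 from shNT was called by edgeR at an adjusted p under 0.05, so the single steps of that order were not.

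Hs6st1, a 6-O-sulfotransferase on chromosome 1 (chr1:36068400-36106446), ran the other way in shRad21_2. Its level was 71.6, 62.9 and 61.4 CPM in shRad21_2, 51.1, 55.5 and 57.2 CPM in shRad21_1 and 52.3, 48.6 and 50.8 CPM in shNT. All shRad21_2 libraries lay above all others, whereas shRad21_1 and shNT overlapped. The log2 difference was 0.37 for shRad21_2 and 0.11 for shRad21_1 against shNT, and 0.26 between the hairpins (SE 0.08 each).

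Hs6st2, the X-linked 6-O-sulfotransferase (chrX:51387212-51681856), depended on a single library. It had 35.7, 40.9 and 40.5 CPM in shRad21_2, 56.8, 32.6 and 34.2 CPM in shRad21_1 and 35.3, 31.2 and 31.1 CPM in shNT. Every shRad21_2 library was above every shNT library, but shRad21_1 overlapped both. The log2 difference from shNT was 0.26 for shRad21_2 and 0.34 for shRad21_1 (SE 0.19 each), and the second value was 0.04 without replicate 1 of shRad21_1. Between the hairpins it was -0.08, and 0.23 without that replicate.

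Gpc1 was the most abundant glypican per kb of exon. It measured 199.9, 170.0 and 177.3 CPM in shRad21_2, 167.2, 136.8 and 133.1 CPM in shRad21_1 and 156.7, 152.0 and 155.4 CPM in shNT (chr1:92831645-92860779). All shRad21_2 libraries exceeded all others, and the shNT range lay inside that of shRad21_1. The log2 difference in shRad21_2 was 0.24 against shNT and 0.32 against shRad21_1, and that of shRad21_1 against shNT was -0.09 (SE 0.10 each). Without replicate 1 of shRad21_1 the last 2 became 0.44 and -0.20.

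Gpc2, a glypican known mainly from the developing nervous system, was higher in the shRad21_1 libraries than in those of either other group. It had 32.2, 32.2 and 30.6 CPM in shRad21_2, 39.9, 40.4 and 41.6 CPM in shRad21_1 and 30.8, 30.4 and 31.9 CPM in shNT (chr5:138273655-138280005). The shRad21_1 libraries were tightly grouped above the rest, and shRad21_2 overlapped shNT. The log2 difference was 0.39 for shRad21_1 and 0.03 for shRad21_2 against shNT, and -0.36 for shRad21_2 against shRad21_1 (SE 0.07 each). Stag3, which starts beside it, was at 3.01, 3.55 and 3.34 CPM in shRad21_2, 4.21, 2.85 and 3.27 CPM in shRad21_1 and 4.01, 2.74 and 3.37 CPM in shNT. Its edgeR log2 difference from shNT was -0.03 in shRad21_2 (adjusted p = 0.913) and 0.03 in shRad21_1 (adjusted p = 0.943), each with an SE of 0.21, so a change in Stag3 of the size seen for Gpc2 was not distinguishable here.

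Gpc6, which stretches over 1051.2 kb of chromosome 14 (chr14:116925315-117976544) and is known as a factor released by astrocytes that acts on synapses, had the same shape with a larger step. It had 20.2, 28.4 and 23.9 CPM in shRad21_2, 41.9, 47.3 and 47.2 CPM in shRad21_1 and 28.2, 26.8 and 23.6 CPM in shNT. All shRad21_1 libraries lay above all others, and shRad21_2 and shNT overlapped. The log2 difference was 0.79 for shRad21_1 and -0.12 for shRad21_2 against shNT, and -0.91 for shRad21_2 against shRad21_1 (SE 0.13 each). Leaving out replicate 1 of shRad21_1 gave 0.85 and -0.97 for the comparisons it enters. Neither Gpc2 nor Gpc6 followed the order of the groups in Rad21 level.

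Gpc4, another glypican of astrocytes and neural progenitors (chrX:52053021-52165252), was set by replicate 1 of shRad21_1. It had 25.4, 23.0 and 19.4 CPM in shRad21_2, 64.8, 22.0 and 21.0 CPM in shRad21_1 and 35.9, 30.4 and 29.1 CPM in shNT. Every hairpin library except that replicate lay below every shNT library, and that replicate lay above all. The log2 difference against shNT was -0.49 for shRad21_2 and 0.17 for shRad21_1 (SE 0.37 each), and the second value was -0.57 without the replicate, so its direction turned. Between the hairpins it was -0.67, and 0.08 without the replicate.

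Gpc3, known in humans for an overgrowth syndrome when lost, was the rarest of the 5 glypicans per kb of exon (chrX:52272426-52613950). It had 127, 78 and 94 counts in shRad21_2 (2.81, 2.29 and 2.68 CPM), 83, 42 and 41 counts in shRad21_1 (2.26, 1.12 and 1.09 CPM) and 74, 92 and 89 counts in shNT (2.03, 2.17 and 1.97 CPM). The shRad21_2 libraries lay above all others, and in shRad21_1 replicates 2 and 3 were below every shNT library while replicate 1 was above. The log2 difference was 0.33 for shRad21_2 and -0.47 for shRad21_1 against shNT, and 0.80 between the hairpins (SE 0.28 each). Without replicate 1 of shRad21_1 the last 2 were -0.90 and 1.23.

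The 3 neighbours on the X chromosome thus shared their deviation in that library. Replicate 1 of shRad21_1 exceeded the mean of replicates 2 and 3 by 1.59 for Gpc4, 0.97 for Gpc3 and 0.76 for Hs6st2 on the scale log2(CPM + 0.1). Of all tested genes, 2.63% deviated by more in either direction than Gpc4, 8.11% by more than Gpc3 and 12% by more than Hs6st2. Sulf2 followed with 0.50 and Gpc1 with 0.31, and the other 5 genes were within 0.17. Across the group means the neighbours did not move as a block: against shNT, shRad21_2 was at 0.26 for Hs6st2, -0.49 for Gpc4 and 0.33 for Gpc3. The 10 astrocyte markers, among them Gfap and Aqp4, summed to 905.5 to 939.2 CPM in shRad21_2, 1344.6 CPM in shRad21_1 replicate 1 against 2060.3 and 2073.8 CPM in its replicates 2 and 3, and 2207.7 to 2262.8 CPM in shNT. Slc1a3 was the largest part of that sum, with means of 584.7 CPM in shRad21_2, 1055.3 CPM in shRad21_1 and 1129.0 CPM in shNT. Gja1 ran the other way, at 155.5 ± 13.0 CPM in shRad21_2, 152.4 ± 56.5 CPM in shRad21_1 and 108.4 ± 22.3 CPM in shNT (SD, n = 3). Gfap was at or below the floor in the shRad21_2 libraries, at 0.0, 0.0293 and 0.0856 CPM. It was at 0.19, 14.6 and 15.1 CPM in the shRad21_1 libraries and 4.62, 8.59 and 10.5 CPM in those of shNT. The part of the astrocyte markers in the values of Gpc4 and Gpc6 was not tested. For the cells that a cortical preparation could also hold, mesenchyme and meninges markers summed to 59.6 to 62.1 CPM in shRad21_2, 75.2 to 82.0 CPM in shRad21_1 and 72.5 to 81.0 CPM in shNT, with Dcn at 0 throughout. Endothelial markers summed to at most 5.63 CPM and microglial markers to at most 3.16 CPM in any library, with Aif1 and Cx3cr1 at 0. Neuronal markers, of which Neurod2 was at 0, summed to 954.7 to 1084.7 CPM in shRad21_2, 909.4 to 1038.8 CPM in shRad21_1 and 769.6 to 917.9 CPM in shNT. Most of that sum was Map2. It averaged 988.6 ± 67.8 CPM in shRad21_2, 885.2 ± 33.8 CPM in shRad21_1 and 793.3 ± 78.8 CPM in shNT (SD, n = 3). Dcx ran the other way, at 0.385 ± 0.176 CPM in shRad21_2, 1.26 ± 0.568 CPM in shRad21_1 and 2.79 ± 1.97 CPM in shNT. The means of Tubb3, Rbfox3, Snap25 and Elavl3 had the same order as Dcx, and those of Neurod1 and Stmn2 did not. Syt1 was at 97.8, 26.5 and 25.6 CPM in the shRad21_1 libraries and averaged 9.92 CPM in shRad21_2 and 7.96 CPM in shNT. Markers of the oligodendrocyte lineage summed to 2694.0 to 3086.8 CPM in shRad21_2, 3090.0 to 3226.4 CPM in shRad21_1 and 2752.2 to 2884.6 CPM in shNT. Nearly all of that sum was Olig1 and Olig2, and other markers of the lineage were lower in shRad21_2: Pdgfra averaged 5.2 ± 0.969 CPM in shRad21_2, 31.2 ± 10.7 CPM in shRad21_1 and 62.3 ± 2.54 CPM in shNT (SD, n = 3), and Opalin 0.196 ± 0.15 CPM in shRad21_2, 0.574 ± 0.287 CPM in shRad21_1 and 1.75 ± 0.196 CPM in shNT. The part of these levels in the values of the 10 genes was not tested.

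**Figure D2:**
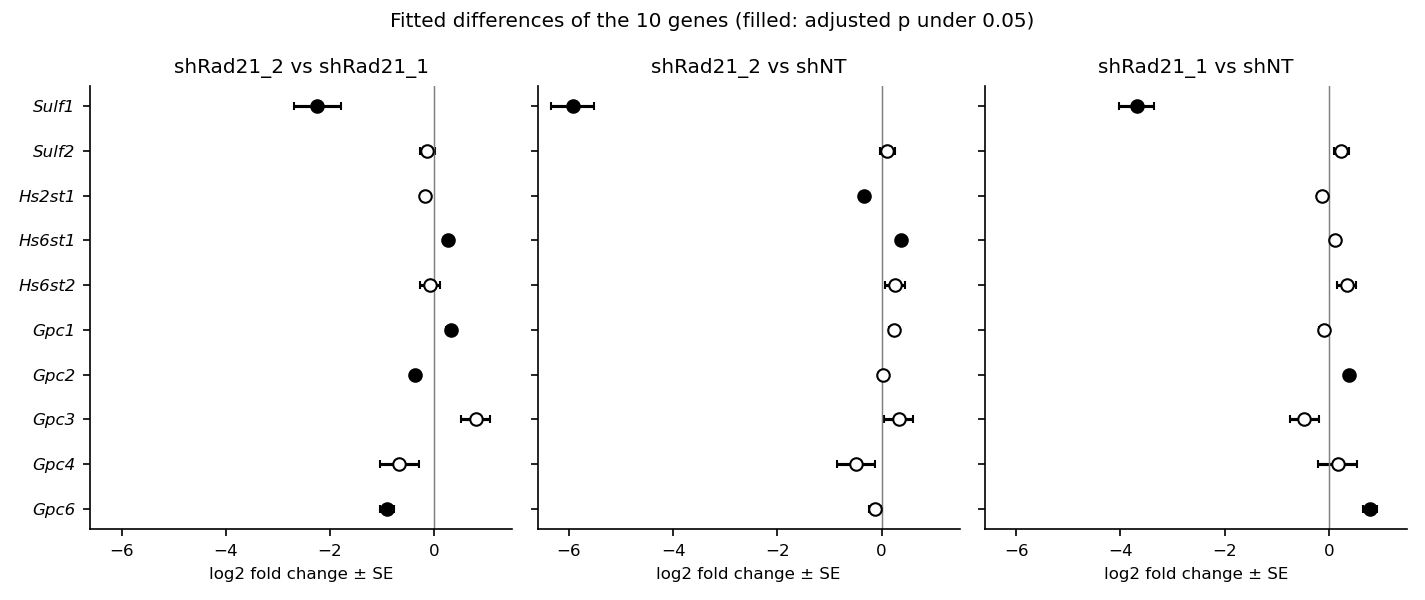
Fitted log2 fold change ± SE of each of the 10 genes in the 3 comparisons, filled where the adjusted p was under 0.05. Sulf1 lies at -2.24, -5.93 and -3.69, and all other genes lie between -0.91 and 0.80.

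By the edgeR quasi-likelihood test with an adjusted p under 0.05 over all genes, 5 of the 10 genes passed in shRad21_2 against shRad21_1 (2 higher, 3 lower), where 26.3% of all tested genes did (11.9% higher, 14.4% lower). In shRad21_2 against shNT 3 passed (1 higher, 2 lower), beside 43.6% of all tested genes (21.1% higher, 22.5% lower). In shRad21_1 against shNT 3 passed (2 higher, 1 lower), beside 9.82% (4.19% higher, 5.63% lower). Since the genes were chosen with these comparisons in view, nothing is read from the counts. The median log2 difference of the 10 was -0.16 in shRad21_2 against shRad21_1, 0.07 in shRad21_2 against shNT and 0.14 in shRad21_1 against shNT, and that of all tested genes was at most 0.01 in each. Sulf1 was the only gene of the 10 to pass in all 3, and it did so in each of the 18 alternative fits per comparison. Those fits reuse the same libraries, and Sulf1 was chosen with its values known, so this too is a description only. The counts depended on single libraries: without replicate 1 of shRad21_1 they were 6 for shRad21_2 and 5 for shRad21_1 against shNT. Between the hairpins 3 passed without shRad21_2 replicate 1, without shRad21_1 replicate 2 or 3, or without any of the 3 shNT libraries. There Hs6st1 lost its call in 8 of 9 such fits (log2 0.19 to 0.29) and Gpc1 in 7 of 9 (0.26 to 0.35). Gpc2 in shRad21_1 against shNT lost it without shNT replicate 2 (0.37). With replicates 2 and 3 of shNT and of shRad21_1 summed, Gpc2 (0.38) and Gpc6 (0.74) both lost their calls in shRad21_1 against shNT. Between the hairpins Gpc2 (-0.36), Hs6st1 (0.28) and Gpc1 (0.27) lost theirs in that fit. Without shRad21_1 replicate 1, Gpc3 and Gpc4 gained calls in shRad21_1 against shNT and Gpc3 between the hairpins, at the values given above, and Hs6st2, Gpc1 and Gpc4 gained calls in shRad21_2 against shNT (0.26 for Hs6st2, 0.24 for Gpc1 and -0.49 for Gpc4).

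Levels can be compared between genes only per length, here as CPM per kb of merged exon. In shNT the order was Sulf2 (83.6 ± 1.71), Gpc1 (30.0 ± 0.471), Hs2st1 (13.1 ± 1.05), Gpc4 (12 ± 1.36), Hs6st1 (9.12 ± 0.329), Gpc2 (7.26 ± 0.186), Hs6st2 (4.17 ± 0.31), Gpc6 (4.08 ± 0.369), Gpc3 (0.766 ± 0.0377) and Sulf1 (0.758 ± 0.0257; SD, n = 3). Hs2st1 and Gpc4 overlapped in this order, as did Hs6st2 and Gpc6 and also Gpc3 and Sulf1, so these neighbours did not differ beyond their spread. In shRad21_2 the order began with Sulf2 (90.2 ± 13.3) and Gpc1 (35.4 ± 3.03), followed by Hs6st1 (11.8 ± 0.993), ahead of Hs2st1 (10.5 ± 0.47) and Gpc4 (8.52 ± 1.14). Sulf1 was last there at 0.0114 ± 0.00885, far below Gpc3 at 0.964 ± 0.102. In shRad21_1, Gpc4 spanned 7.91 to 24.4, with replicate 1 at the top, and its mean ranked just above Hs2st1 (11.9 ± 0.0595). Gpc6 at 7.08 ± 0.483 stood above Hs6st2 at 5.27 ± 1.73 there, with overlapping libraries.

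Summed per kb, the 5 glypicans were about as abundant in each group. The sum was 56.0 ± 3.54 CPM per kb in shRad21_2, 58.9 ± 12.7 in shRad21_1 and 54.1 ± 1.89 in shNT (SD, n = 3). Without the high replicate 1 (73.6), the shRad21_1 libraries were at 52.0 and 51.2. Within the sum, by the mean of the libraries' shares, Gpc1 took 63.1% in shRad21_2, 48.5% in shRad21_1 and 55.5% in shNT. Gpc4 took 15.2% in shRad21_2, 21.5% in shRad21_1 and 22.2% in shNT. Gpc6 took 6.77% in shRad21_2, 12.5% in shRad21_1 and 7.54% in shNT. The shares of shRad21_1 depended on its replicate 1, in which Gpc4 took 33.2%, Gpc1 44.1% and Gpc6 8.86%. In replicates 2 and 3 Gpc4 took 15.9% and 15.4%, as low as in the shRad21_2 libraries (13.6% to 15.9%) and below those of shNT (20.7% to 24.1%). Gpc1 took 51.0% and 50.4% there, and Gpc6 14.2% and 14.3%.

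The profile of Sulf1 over the 9 libraries was set against every other tested gene by the root mean square difference of log2 CPM, each gene relative to its own mean. The 5 nearest were Wnt4 (0.67), C130074G19Rik (0.72), Lrrc32 (0.73), Car8 (0.76) and Cdk6 (0.83), where the median over 13559 genes was 2.41. Wnt4, a Wnt ligand, had 0.686, 0.176 and 0.228 CPM in shRad21_2, 2.45, 3.52 and 2.9 CPM in shRad21_1 and 12.5, 13.4 and 14.4 CPM in shNT. Lrrc32 encodes a docking protein of latent TGF-beta, Car8 a carbonic anhydrase relative without enzymatic activity, and Cdk6 a kinase of the early cell cycle. Car8 measured 1.99, 2.4 and 2.68 CPM in shRad21_2, 7.72, 15.8 and 16.9 CPM in shRad21_1 and 92.6, 72.7 and 72.8 CPM in shNT. The likeness of these 5 genes is the rule that picked them, and 4 of the 5 were picked again without shRad21_1 replicate 1.

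**Figure D3:**
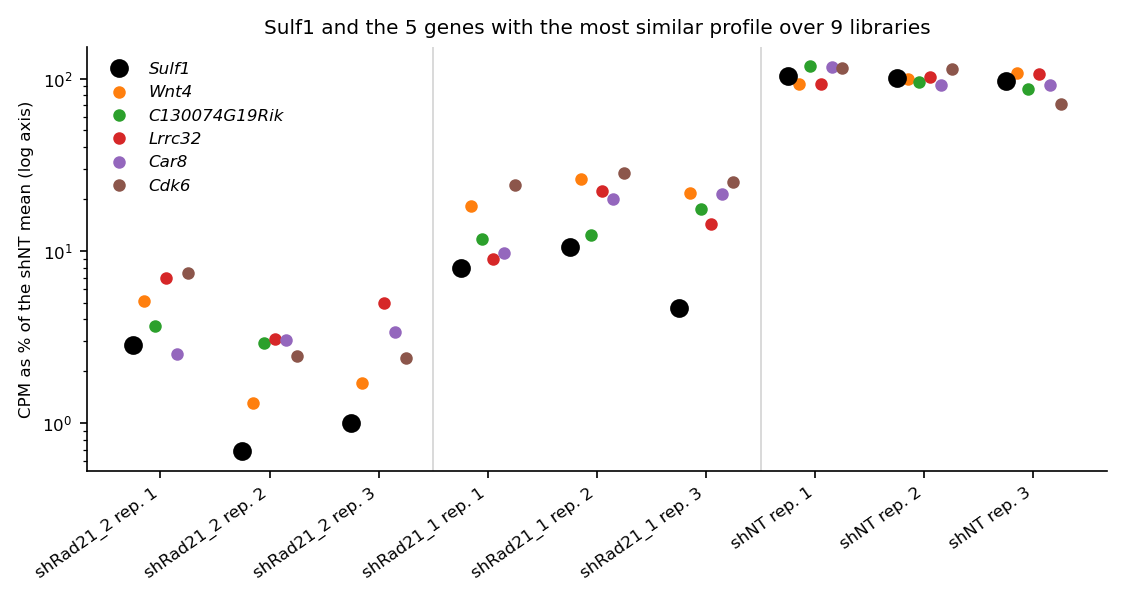
CPM of Sulf1 (black) and of the 5 genes with the nearest profile in each library, as a percentage of each gene's shNT mean on a log axis; a level of 0, as for C130074G19Rik in shRad21_2 replicate 3, is not drawn. All 6 genes are lowest in the shRad21_2 libraries, intermediate in shRad21_1 and highest in shNT.

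Genes next to Sulf1 on chromosome 1 did not share its loss. Gm17644, whose start lies 24.7 kb away, had log2 differences of 0.65 (SE 0.54, adjusted p = 0.352) in shRad21_2 and 0.21 (SE 0.54, adjusted p = 0.851) in shRad21_1 against shNT. Slco5a1, an organic anion transporter relative whose start lies 300.4 kb on the other side, rose by 1.27 (SE 0.22, adjusted p = 0.00125) in shRad21_2 and by 1.09 (SE 0.22, adjusted p = 0.0131) in shRad21_1. With shNT replicate 2 left out the second value no longer passed (1.06, adjusted p = 0.0636), nor did it with shNT replicate 3 left out (0.97, adjusted p = 0.0642). Beside Sulf2, Prex1, an activator of Rac whose start lies 558.2 kb away, fell by 1.73 in shRad21_2 (SE 0.12, adjusted p = 7.16e-06) and by 0.73 in shRad21_1 (SE 0.12, adjusted p = 0.00539), where Sulf2 itself measured 0.11 in shRad21_2 and 0.24 in shRad21_1. Next to Hs2st1, which was lower, Sh3glb1 rose by 0.36 in shRad21_2 (SE 0.06, adjusted p = 0.00163). All of these are edgeR quasi-likelihood values on the log2 scale. Of the 16 nearest tested genes on either side of the 10 that are not among them, 7 passed in shRad21_2 against shNT (43.8%, where 43.6% of all genes did), 4 in shRad21_1 against shNT (25.0%, where 9.82% did) and 4 between the hairpins (25.0%, where 26.3% did). Of the 4 in shRad21_1 against shNT, only Prex1 kept its call whichever library was left out. Lmo4, beside Hs2st1, lost it in 5 and Dusp28, beside Gpc1, in 7 of the 9 fits that left out 1 library.

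Beyond the 10 genes, 46 of the 53 other heparan sulfate genes in the table passed the filter, and with the stronger hairpin most calls among them were downward. In shRad21_2 against shNT, 20 were lower and 3 higher, 23 of 46 in all, where 43.6% of all genes passed (22.5% lower and 21.1% higher). The median log2 difference was -0.34. In shRad21_1 against shNT, 5 were lower and 2 higher (15.2%, against 9.82%), with a median of -0.11, and between the hairpins 13 were lower in shRad21_2 and 2 higher (32.6%, against 26.3%), with a median of -0.20. The 7 calls of shRad21_1 came to 3 without shRad21_1 replicate 2 or shNT replicate 2 and to 2 without shNT replicate 3. With replicates 2 and 3 of shNT and of shRad21_1 summed to 1 library each, edgeR called 0 of the 46 for shRad21_1 (7 at an unadjusted p under 0.05), where with all libraries DESeq2 called 10 and limma-voom 7. Both hairpins were compared with the same shNT libraries. This list and the lists below were also chosen with earlier results of these data known, so their shares are descriptions only.

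Among these 46 genes the largest fall in shRad21_2 was in a gene of chain modification, a list of which 5 of 9 tested genes were lower in shRad21_2 (55.6%, where 22.5% of all genes were) and 3 in shRad21_1 (33.3%, where 5.63% were) against shNT. Hs3st1, a 3-O-sulfotransferase, had 6, 5 and 3 counts in shRad21_2, 159, 93 and 62 counts in shRad21_1 and 403, 303 and 382 counts in shNT. It fell by 6.15 on the log2 scale in shRad21_2 (SE 0.45, edgeR adjusted p = 9.63e-06) and fell by 1.66 in shRad21_1 (SE 0.32, adjusted p = 0.011), and by count it was 71.7-fold lower in shRad21_2 than in shNT (exact 95% interval 42.6 to 131.6, counting error only). Hs3st3b1 and Hs3st5, of the same 3-O-sulfotransferase family, fell by 1.01 (SE 0.09, adjusted p = 2.98e-05) and 2.49 (SE 0.35, adjusted p = 4.40e-04) in shRad21_2. In shRad21_1 Hs3st3b1 fell by 0.72 (SE 0.09, adjusted p = 0.0016) and Hs3st5 by 1.19 (SE 0.33, adjusted p = 0.047), a call that only the fit without shRad21_1 replicate 1 kept among the 9 that each left out 1 library (adjusted p of 0.0616 to 0.155 in the other 8). Glce, the epimerase that makes iduronic acid, fell by 0.33 in shRad21_2 (SE 0.10, adjusted p = 0.0236), a call lost without shRad21_2 replicate 1 or 3 or shNT replicate 2 or 3 (adjusted p of 0.053 to 0.1). Hs6st3, the remaining 6-O-sulfotransferase, had 10, 9 and 1 counts in shRad21_2, 11, 20 and 27 counts in shRad21_1 and 19, 29 and 26 counts in shNT.

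Among genes that start and extend the chain, 3 of 12 were lower and 1 higher in shRad21_2 against shNT (33.3%, where 43.6% of all genes passed). Xylt1, which adds the first sugar to the core protein, fell by 1.11 in shRad21_2 (SE 0.22, edgeR adjusted p = 0.00288) and measured 0.18 in shRad21_1 (adjusted p = 0.652). Extl3, which starts the heparan sulfate chain, fell by 0.49 (SE 0.08, adjusted p = 0.0011), and Ext2, a subunit of the chain polymerase, by 0.40 (SE 0.08, adjusted p = 0.00335). Ext1, its partner, rose by 0.17 in shRad21_2 (SE 0.06, adjusted p = 0.0433) and by 0.33 in shRad21_1 (SE 0.06, adjusted p = 0.0108). The first of these was lost in 7 of the 9 fits that left out 1 library (adjusted p up to 0.141), all except those without shRad21_2 replicate 1 or shRad21_1 replicate 1, and the second without shNT replicate 2 (0.0622) or replicate 3 (0.0665).

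Of 8 other core proteins tested, 4 were lower and 2 higher in shRad21_2 against shNT (75.0%, where 43.6% of all genes passed). Col18a1, a collagen of basement membranes that carries heparan sulfate, had 2.75 ± 1.64 CPM in shRad21_2, 19.8 ± 1.14 CPM in shRad21_1 and 45.5 ± 6.27 CPM in shNT (SD, n = 3). It fell by 4.02 (SE 0.32, edgeR adjusted p = 1.70e-05) in shRad21_2 and by 1.20 (SE 0.28, adjusted p = 0.0256) in shRad21_1. Tgfbr3, a TGF-beta co-receptor, ran the other way, at 6.78 ± 1.87 CPM in shRad21_2, 3.09 ± 0.245 CPM in shRad21_1 and 1.4 ± 0.422 CPM in shNT. It rose by 2.27 in shRad21_2 (SE 0.27, edgeR adjusted p = 1.46e-04) and by 1.14 in shRad21_1 (SE 0.27, adjusted p = 0.0256). The shRad21_1 call of Col18a1 was lost without replicate 2 or 3 of shRad21_1 or of shNT (adjusted p of 0.0714 to 0.102), and that of Tgfbr3 without shRad21_1 replicate 2, shNT replicate 1 or shNT replicate 3 (0.0635 to 0.107). Of the 4 membrane-spanning syndecans, 3 fell in shRad21_2: Sdc4 by 0.90 (SE 0.11, adjusted p = 1.93e-04), Sdc2 by 0.70 (SE 0.17, adjusted p = 0.00804) and Sdc3 by 0.59 (SE 0.17, adjusted p = 0.0194). The call of Sdc3 was lost without shRad21_2 replicate 2 or 3 or shNT replicate 2 or 3 (adjusted p of 0.0505 to 0.0707). The fourth, Sdc1, rose by 0.55 (SE 0.09, adjusted p = 8.40e-04). Gpc5, the glypican not among the 10, did not pass the filter.

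Of 9 tested genes that release heparan sulfate proteins or break the chain down, 6 were lower in shRad21_2 against shNT (66.7%, where 22.5% of all genes were), all of them lysosomal. Naglu, which removes N-acetylglucosamine, fell by 1.74 (SE 0.13, edgeR adjusted p = 1.45e-05) in shRad21_2 and by 0.54 (SE 0.13, adjusted p = 0.0276) in shRad21_1, the second call being lost without shRad21_1 replicate 2, shNT replicate 2 or shNT replicate 3 (adjusted p of 0.0578 to 0.124). Idua and Ids, which act on iduronic acid and its 2-O-sulfate, fell by 1.15 (SE 0.16, adjusted p = 3.97e-04) and 0.52 (SE 0.08, adjusted p = 6.29e-04) in shRad21_2. Notum, which cuts glypicans from their anchor and inactivates Wnts, measured -0.47 in shRad21_2 (SE 0.40, adjusted p = 0.369) and 0.15 in shRad21_1 (SE 0.39, adjusted p = 0.846). Of 8 genes of sulfate supply and sulfatase activation, 2 were lower in shRad21_2 against shNT (25.0%, where 22.5% of all genes were): Sumf1, which activates all sulfatases including Sulf1 and Sulf2, fell by 0.48 (SE 0.12, adjusted p = 0.00823), and its relative Sumf2 by 0.41 (SE 0.13, adjusted p = 0.0269), lost without shRad21_2 replicate 2 or shNT replicate 2 or 3 (0.0793 to 0.0984). In the other 2 comparisons none of these 8 passed with all libraries by edgeR, DESeq2 or limma-voom, with 1 gene between the hairpins and 0 in shRad21_1 against shNT at an unadjusted edgeR p under 0.05. With 1 library left out, Impad1 (-0.45, adjusted p = 0.00577) and Slc26a2 (-0.42, adjusted p = 0.029) passed between the hairpins without shRad21_2 replicate 2, and Sumf1 (-0.34, adjusted p = 0.0225) in shRad21_1 against shNT without shRad21_1 replicate 1. In shRad21_2 against shNT, Impad1 measured -0.34 (SE 0.13, adjusted p = 0.0531) and Slc26a2, a sulfate transporter, -0.24 (SE 0.19, adjusted p = 0.325). Without shRad21_2 replicate 2 both passed (-0.52, adjusted p = 0.00155, and -0.53, adjusted p = 0.00728), and Impad1 also did without shRad21_1 replicate 1 (adjusted p = 0.046).

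**Figure D4:**
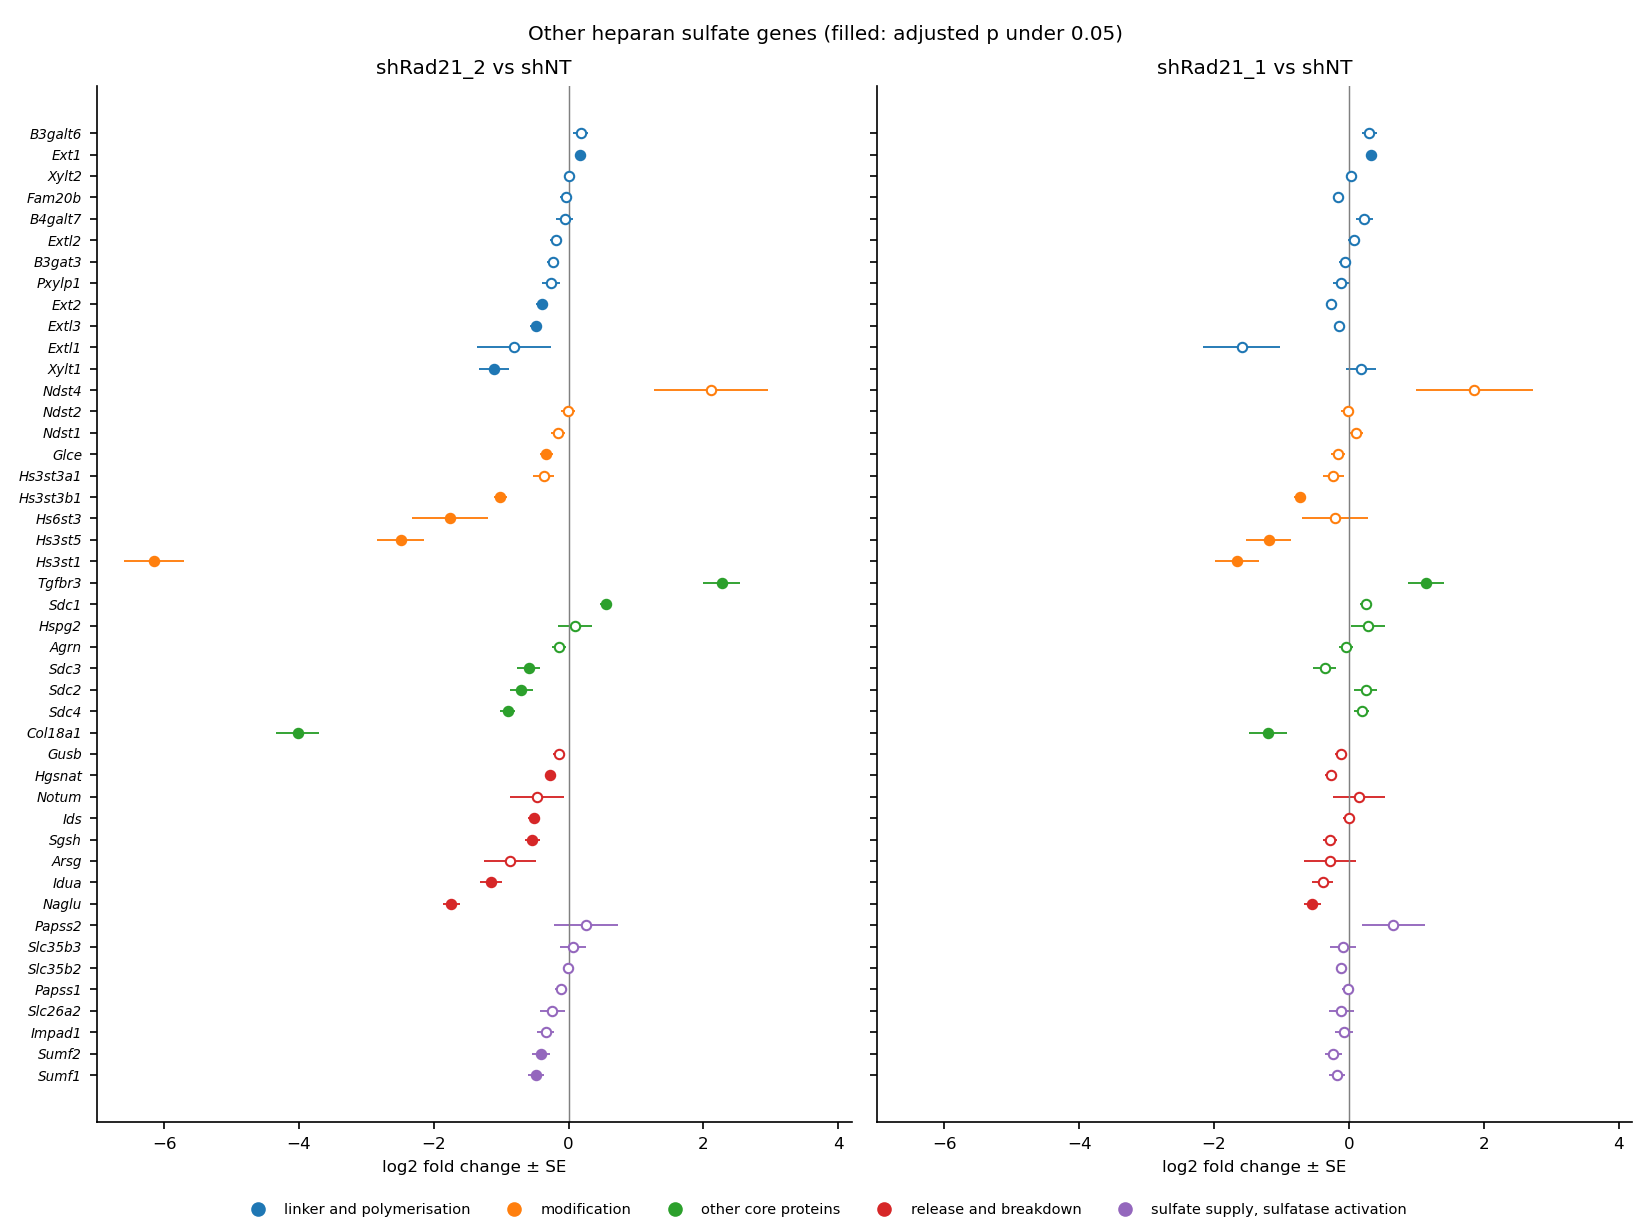
Log2 fold change ± SE of the other heparan sulfate genes that were tested, against shNT, for shRad21_2 (left) and shRad21_1 (right), coloured by the list a gene belongs to and filled where the adjusted p was under 0.05. In shRad21_2 most filled points lie below zero, with Hs3st1 at -6.15 and Col18a1 at -4.02 and 3 points above, and in shRad21_1 5 lie below and 2 above; 1 gene is not drawn.

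Genes read as outputs of the FGF and Wnt signals, which heparan sulfate tunes, were also counted. Of 11 feedback and target genes of FGF signalling, 3 rose in shRad21_2 against shNT (27.3%, where 43.6% of all genes passed and 21.1% rose). In shRad21_1 1 rose (9.09%, where 9.82% of all genes passed and 4.19% rose). With all libraries none of the list was called lower in either comparison. The shares called in either direction were no larger than those of all genes, while the shares that rose were larger, on 3 genes and 1 gene. Without shRad21_1 replicate 1, Spred3 was called lower in shRad21_2 (-0.51, edgeR adjusted p = 0.0118) and Etv5 in shRad21_1 (-0.41, adjusted p = 0.0047). Dusp4 was called lower in shRad21_2 without shNT replicate 1 (-0.42, adjusted p = 0.0366). Spred1 was called higher in shRad21_1 without shRad21_2 replicate 1 (0.41, adjusted p = 0.0252). Between the hairpins Spry2 and Spred1 were lower in shRad21_2 (18.2%, where 26.3% passed), a call lost for Spry2 in 7 and for Spred1 in 8 of the 9 fits that left out 1 library. Spred2, an inhibitor of the Ras pathway, rose by 0.51 in shRad21_2 (SE 0.09, edgeR adjusted p = 0.00128) and by 0.43 in shRad21_1 (SE 0.09, adjusted p = 0.015), the second call being lost without shRad21_1 replicate 2 or 3 or any shNT library (adjusted p of 0.0511 to 0.0667). The transcription factors Etv1 and Etv4 rose by 0.30 (SE 0.08, adjusted p = 0.0145) and 0.24 (SE 0.08, adjusted p = 0.0334) in shRad21_2, lost for Etv1 without shNT replicate 3 (0.0537) and for Etv4 in 5 of the 9 fits that left out 1 library (0.0534 to 0.109), which were those without shRad21_2 replicate 1 or 3, shRad21_1 replicate 2, or shNT replicate 1 or 2. Spry2, a feedback inhibitor, measured -0.30 in shRad21_2 (SE 0.12, adjusted p = 0.0771) and passed without shRad21_1 replicate 1 (-0.29, adjusted p = 0.0202) or shNT replicate 1 (-0.39, adjusted p = 0.038). The median log2 difference of the list was -0.03 in shRad21_2 and 0.11 in shRad21_1.

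Of 11 Wnt target genes, 5 were lower and 2 higher in shRad21_2 against shNT (63.6%, where 43.6% of all genes passed), and 3 lower and 1 higher in shRad21_1 (36.4%, where 9.82% did). Rnf43, a ligase that removes Wnt receptors, had 2, 0 and 0 counts in shRad21_2, 16, 21 and 33 counts in shRad21_1 and 80, 88 and 72 counts in shNT, a count ratio of 0.00903 for shRad21_2 over shNT (exact 95% interval 0.00109 to 0.033, counting error only, with both counts in 1 library). Its relative Znrf3 fell by 0.79 in shRad21_2 (SE 0.17, edgeR adjusted p = 0.00458), and Lgr5, a receptor that opposes both, by 1.17 (SE 0.25, adjusted p = 0.00408) in shRad21_2 and 1.09 (SE 0.25, adjusted p = 0.023) in shRad21_1. Tcf7 and Lef1, transcription factors of the pathway, rose by 1.37 (SE 0.25, adjusted p = 0.00163) and 1.56 (SE 0.44, adjusted p = 0.0174) in shRad21_2. In shRad21_1 Lef1 rose by 2.19 (SE 0.45, adjusted p = 0.0148), or by 1.33 (adjusted p = 0.00125) without replicate 1, while Rnf43 fell by 1.64 (SE 0.38, adjusted p = 0.0256) and Sp5 by 1.89 (SE 0.49, adjusted p = 0.038), and in shRad21_2 Sp5 fell by 1.81 (SE 0.49, adjusted p = 0.0131). Each of these shRad21_1 calls was lost without shNT replicate 2 or 3 (adjusted p of 0.0801 and 0.0845 for Lgr5), those of Lef1 (0.0525) and Rnf43 (0.0731) also without shNT replicate 1, that of Rnf43 also without shRad21_1 replicate 2 (0.0836), and that of Sp5 in 7 of the 9 fits that left out 1 library, all except those without shRad21_2 replicate 1 or 3 (0.0554 to 0.136). The shRad21_2 call of Lef1 was lost without shRad21_2 replicate 1, shNT replicate 1 or shNT replicate 2 (0.0521 to 0.0572). Lef1 was at 18.3 CPM in shRad21_1 replicate 1 against 4.94 and 5.74 CPM in replicates 2 and 3.

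Enzymes of chondroitin and dermatan sulfate, the other sulfated chains made from the same linker, had 4 of 15 tested genes lower and 2 higher in shRad21_2 against shNT (40.0%, where 43.6% of all genes passed), and 2 lower and 1 higher in shRad21_1 (20.0%, where 9.82% did). Chst11, a chondroitin 4-O-sulfotransferase, fell by 1.69 in shRad21_2 (SE 0.12, edgeR adjusted p = 9.51e-06) and measured -0.23 in shRad21_1 (adjusted p = 0.261). Csgalnact1, which starts the chondroitin chain, fell by 1.21 in shRad21_2 (SE 0.16, adjusted p = 2.42e-04) and by 0.63 in shRad21_1 (SE 0.15, adjusted p = 0.03), and Chpf2, a chain-extending factor, by 0.57 in shRad21_2 (SE 0.11, adjusted p = 0.00238). Dsel, an epimerase, rose by 0.53 in shRad21_2 (SE 0.11, adjusted p = 0.00324), and Chst15, a sulfotransferase, by 0.84 in shRad21_2 (SE 0.23, adjusted p = 0.016) and by 1.11 in shRad21_1 (SE 0.23, adjusted p = 0.017). Chst3, a chondroitin 6-O-sulfotransferase, fell by 0.98 in shRad21_1 (SE 0.23, adjusted p = 0.0245) and measured -0.33 in shRad21_2 (adjusted p = 0.257), which passed without shRad21_1 replicate 1 (-0.32, adjusted p = 0.0207). Without shNT replicate 2 or 3 the shRad21_1 calls of Csgalnact1 (0.125 and 0.1), Chst15 (0.0782 and 0.0642) and Chst3 (0.0855 and 0.0871) were lost, as were those of Csgalnact1 (0.0547) and Chst15 (0.0501) without shRad21_1 replicate 2 and that of Chst3 without shNT replicate 1 (0.0525). The shRad21_2 call of Chst15 was lost without shNT replicate 2 (0.0568) or 3 (0.0586).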

How the data were processed

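Libraries were made from fragmented mRNA with random-hexamer priming, per the labels' protocols. The gene counts are whole numbers deposited by the authors; FastQC, cutadapt, Trim Galore, Bowtie2, RSEM and the mm10 build are named in the submitters' processing notes, while the sources used here give no versions, annotation, strand setting or rounding of the estimates. Counts were filtered by group (filterByExpr), scaled by TMM and fitted for all 9 libraries together with edgeR 4.0.16 (R 4.3.3) by quasi-likelihood, with group means only and two-sided tests. P-values were Benjamini-Hochberg adjusted over all 13560 tested genes and called under 0.05. Scripts were tested on simulated data. Alternatives were other scalings, DESeq2 1.42.0, limma 3.58.1 (voom), other filters, the 2 groups alone, replicates 2 and 3 of shNT and of shRad21_1 summed, a replicate block, and each library left out.

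Genes were placed by GENCODE annotation of mm10, which matched 13054 tested genes by symbol (96.3%), all 10 members included. Exact intervals are from binomial counts at 95% confidence. The members and lists were chosen with earlier results of these data known. Named genes are, per list, the 4 with the smallest p in shRad21_2 against shNT and any called in shRad21_1, and those nearest to Sulf1 in profile or to a member in position. A few other genes were named after their values were seen: Hs6st3, Gpc5, Notum, Sdc2, Sdc3, Spred1, Spred3, Dusp4 and Etv5. So were the markers Nes, Hes5, Slc1a3, Gja1, Gfap, Map2, Dcx, Tubb3, Rbfox3, Snap25, Elavl3, Neurod1, Stmn2, Syt1, Pdgfra and Opalin. Same-numbered libraries deviated together in shRad21_1 against shNT (correlations 0.242, 0.116 and 0.117), so numbers were taken to pair there, by the data alone; libraries 2 and 3 correlated more when crossed (0.154 and 0.16), so the numbers do not tell those 2 apart. In the other comparisons they were under 0.1. The result of 1 gene that this rule names is not reported here.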

Additional observations from a re-analysis of the deposited data

How the results depend on the processing

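No value changed sign with a call kept on both sides in any alternative. For the 10 genes, 526 of 540 alternative log2 values stayed within 1 SE of the reported one, and of the 14 that moved further, 10 came from leaving out shRad21_1 replicate 1. Of 1938 alternative values for the named pathway genes, 165 lost a call and 29 gained one. Summing replicates 2 and 3 of shNT and of shRad21_1, which leaves fewer samples, lowered the calls over all genes to 1270 between the hairpins (3563 reported), 3707 for shRad21_2 (5917) and 130 for shRad21_1 (1331) against shNT. It gave 2 of the 10 genes between the hairpins and 1 for shRad21_1, 9 heparan sulfate genes between the hairpins and 0 for shRad21_1, and 5 and 0 genes of the FGF, Wnt and chondroitin lists. Those zeros are edgeR counts beside 7 and 11 genes at an unadjusted p under 0.05, and with all libraries DESeq2 called 10 and 10 and limma-voom 7 and 8. With only the 2 groups compared in the fit, 2233 genes were called between the hairpins, with 3 of the 10 genes there and 5 for shRad21_2 against shNT; the cause was not tested. DESeq2 called 2042 genes for shRad21_1 against shNT, and its cause was not tested either. Leaving out 1 library gave 2045 to 4486, 4263 to 6858 and 460 to 1599 genes in the 3 comparisons (shRad21_2 against shRad21_1, shRad21_2 against shNT, shRad21_1 against shNT), 3 to 5, 3 to 6 and 2 to 5 of the 10, 11 to 16, 17 to 27 and 2 to 9 heparan sulfate genes, and 5 to 12, 13 to 20 and 0 to 11 genes of the other lists. The zeros were without shNT replicate 2 or 3 (11 and 12 genes at an unadjusted p under 0.05).

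Scaling by library totals alone shifted the median of all genes by less than 0.1 but turned the share of upward calls to 32.2% between the hairpins (45.1% reported) and 38.0% for shRad21_2 against shNT (48.4%). There, 4 of the 10 genes were called between the hairpins, all lower. With replicate number as a block, 3643, 6066 and 1436 genes were called in the 3 comparisons, 5, 4 and 3 of the 10, 13, 22 and 7 heparan sulfate genes, and 9, 16 and 9 of the other lists. In shRad21_1 against shNT, the block changed 1 call of the genes described, that of Spry1 (0.24, edgeR adjusted p = 0.0487). There the numbers were taken to pair by the data alone, which did not tell replicates 2 and 3 apart. In shRad21_2 against shNT, where the numbers were not taken to pair, Ext1 measured 0.17 with the block (adjusted p = 0.0612). Depth limits Sulf1 in shRad21_2, where 2 libraries hold at most 3 counts.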
